A study of Drosophila melanogaster with 62 samples.

Results

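The genes zld, Clamp and Trl encode Zelda, CLAMP and GAGA factor, DNA-binding proteins that open chromatin when the Drosophila melanogaster embryo first transcribes its own genome. Their rows were found by FlyBase identifier, and they are 3 of the 17753 genes counted. The gene zld (FBgn0259789) lies on chromosome X at 19766465-19783548, Clamp (FBgn0032979) on 2L at 22165720-22169143 and Trl (FBgn0013263) on 3L at 14747929-14761049. All 3 lie on the minus strand of genome build dm6 in the Ensembl annotation.

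Zelda is a zinc-finger protein made from RNA that the mother loads into the egg. It binds early zygotic enhancers and promoters before they are active and lowers nucleosome occupancy there. CLAMP is a zinc-finger protein that binds GA-rich repeats, brings the MSL dosage compensation complex to the male X chromosome and binds the histone gene cluster. GAGA factor, the product of Trithorax-like (Trl), also binds GA-rich repeats, carries a BTB domain and works with chromatin remodellers such as NURF. RNA of all 3 is present in the egg, so a level at the cellular blastoderm can hold maternal and newly made RNA together.

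Total RNA was sequenced from samples of 20 hand-sorted embryos at stage 2, before the main wave of zygotic transcription, and at stage 5, the cellular blastoderm. Nuclear RNA came from nuclei of 300 stage 5 embryos per sample, with ERCC spike-in RNA. The main set held controls and knockdowns (KD) of the acetyltransferases Nejire (the fly CBP) and Gcn5 and of the deacetylases HDAC1 and HDAC3 at both stages. A set that the labels call batch1 held its own controls with knockdowns of Enok, an acetyltransferase, and HDAC6, a deacetylase. A further 4 groups of stage 5 carried NejireKD or Gcn5KD with a wild type or a catalytic dead rescue of the same enzyme. The nuclear groups were control and NejireKD; the library names call those controls WT, unlike the Ctrl crosses of total RNA. Library names give both total RNA control sets the same cross and each total RNA knockdown a cross of its own. All of these crosses share a parent name, and some batch1 controls are named CtrlAc in place of Ctrl. Each rescue group had a further cross, and the crosses of the Nejire rescues share no parent name with that of NejireKD. The crosses of the Gcn5 rescues share a parent number with that of Gcn5KD. The effects of a knockdown or a rescue and of its line cannot be told apart. The labels name no driver for the knockdowns.

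The 62 libraries formed 22 groups, of which 16 had 3 libraries, 5 had 2 and 1 had 4. Total RNA libraries held 2.45 to 40.4 M counts (median 8.91 M) and nuclear libraries 14.8 to 20.7 M. The targeted gene was below every control library in each knockdown that had counts for it, with log2 fold changes from -9.74 (Gcn5, stage 2) to -1.48 (HDAC6, stage 5). HDAC3 had 0 counts in all 62 libraries, so its knockdown could not be checked. The summed level of 6 zygotic marker genes was 0 to 1.13 counts per M counts (CPM) at stage 2 and 163 to 1453 CPM at stage 5. For HDAC6KD replicate 2 of stage 5, the source and tissue fields say stage 2 and the title stage 5. The zygotic sums of both HDAC6KD libraries of stage 5 were 732 and 814 CPM.

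Counts of zld came from 10605 exon bases that no other gene shares. Clamp has 2897 exon bases, of which 502 lie opposite CG42748, and no source used here says whether counting used strand. Of the 6254 exon bases of Trl, 4865 (77.8%) are shared with CG42507 or Tsen34, both on its own strand. CG42507, whose 4441 exon bases all lie within Trl exons, had 0 counts in all 62 libraries. Only 6 of the 10 Trl transcripts hold bases of their own, 1389 in all. The Trl counts are therefore uncertain, and levels per kb below use unshared bases (2395 for Clamp).

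**Figure D1:**
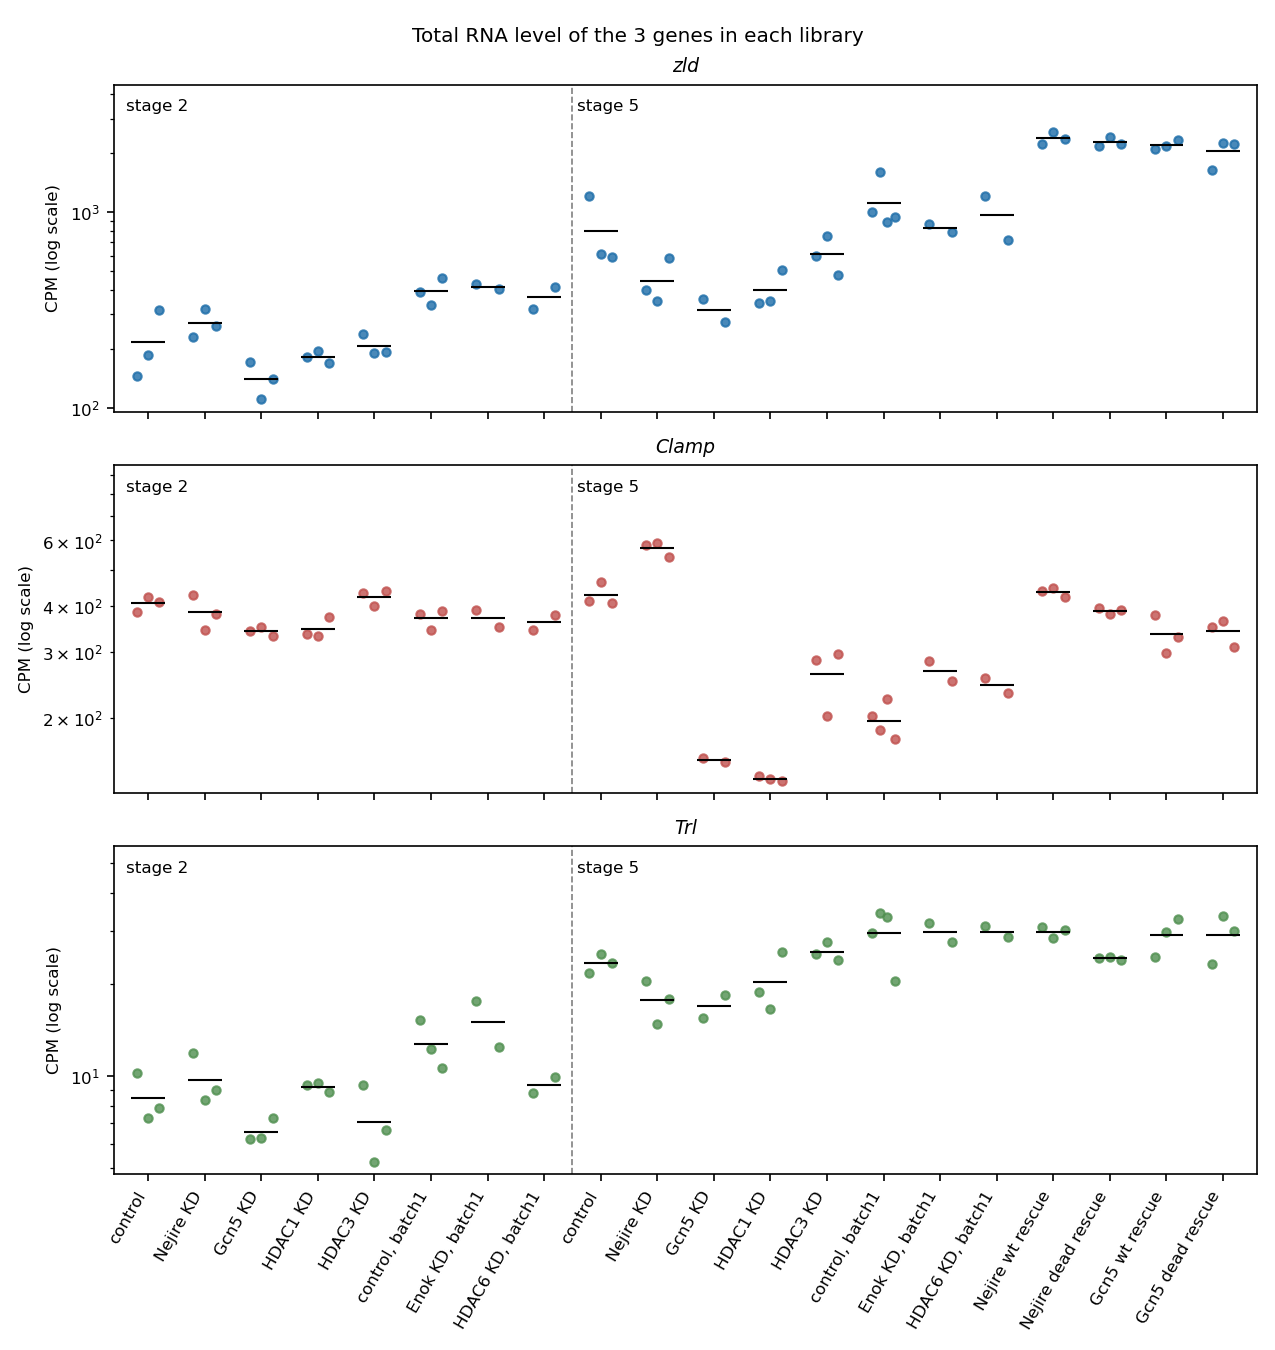
Level of zld, Clamp and Trl in each of the 56 total RNA libraries, in CPM on log axes, with stage 2 groups left and stage 5 groups right of the dashed line; points are libraries and bars are group means. Clamp was 135 to 139.5 CPM in HDAC1KD at stage 5 and 543 to 591 CPM in NejireKD, and the 12 rescue libraries had zld at 1649 to 2557 CPM.

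In control embryos of the main set, Clamp was the most abundant of the 3 RNAs per kb. At stage 2 it reached 170 ± 7.99 CPM per kb (SD, n = 3), against 20.4 ± 8.47 for zld and 6.10 ± 1.13 for Trl. At stage 5 Clamp stood at 179 ± 13.2 CPM per kb, zld at 75.8 ± 33.1 and Trl at 16.9 ± 1.23 (SD, n = 3). The order was the same in every library of both groups for these 3 genes. Among 9215 genes ranked by level per kb of all exons, Clamp exceeded 94.0% at stage 2 and 94.5% at stage 5, whereas zld moved from above 46.5% to above 86.6%. The order of zld and Clamp differed in the batch1 controls at stage 5, where zld was at 105 ± 31.4 and Clamp at 82.0 ± 9.12 CPM per kb (SD, n = 4).

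Across the 12 stage 5 groups of total RNA, zld was highest in the 4 rescue groups (means of 2048 to 2383 CPM) and lowest in Gcn5KD (317 ± 61.2 CPM, SD, n = 2). The rescue libraries did not overlap the next group, the batch1 controls, and all other neighbours in the order overlapped. Clamp ran from 543 to 591 CPM in NejireKD down to 135 to 139.5 CPM in HDAC1KD (n = 3 each). NejireKD, Gcn5KD and HDAC1KD were each separated from their neighbours in that order. Trl means at stage 5 spanned 16.99 CPM (Gcn5KD) to 29.8 CPM (HDAC6KD), and every pair of neighbours overlapped. At stage 2 neighbours overlapped for all 3 genes. The rescue, batch1 and main libraries carry different dates in their names, so this order of levels across the sets is given without a test. Tests between the control sets, and of main-set knockdowns against batch1 controls, are given below.

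The comparison of control embryos at stage 5 with stage 2 follows each RNA from maternal supply to the blastoderm. Both zld and Trl rose in both control sets, and Clamp moved in opposite directions in them. On the scale of that fit, zld was at 133, 165 and 287 CPM in the main stage 2 libraries and at 1294, 654 and 628 CPM at stage 5. Every stage 5 library lay above every stage 2 library, a 4.4-fold rise (log2 2.14 ± 0.36, SE; adjusted p = 4.4e-04 by edgeR's quasi-likelihood test). Trl was at 9.35, 6.44 and 7.11 CPM at stage 2 and at 23.3, 26.8 and 25.1 CPM at stage 5, again without overlap, a 3.37-fold rise (log2 1.75 ± 0.18, SE; adjusted p = 1.6e-05). All 3 genes passed the test here, where 79.8% of all genes tested did.

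In the batch1 controls zld rose 3.63-fold (log2 1.86 ± 0.23, SE; adjusted p = 4.2e-05) and Trl 3.05-fold (log2 1.61 ± 0.18, SE; adjusted p = 9.0e-07). All 3 genes passed, where 87% of all genes did. The size for zld changed with an offset for the trend of counts on exon length in each library. Its rise was then 0.95 (main set) and 0.52 (batch1) on the log2 scale, and the cause of the change was not tested. In a fit of the main controls alone, that trend was 0.102, -0.0119 and -0.0398 log2 units per doubling of length in the stage 5 libraries and -0.0654, -0.0198 and 0.0349 at stage 2.

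Clamp was at 352, 373 and 371 CPM in the main stage 2 controls and at 440.3, 494 and 435 CPM at stage 5, on the scale of that fit. This was a 1.25-fold rise (log2 0.32 ± 0.11, SE; adjusted p = 0.0205). When all 56 libraries were scaled together the same groups overlapped and the difference was 0.07 (adjusted p = 0.583), and the call was lost in 7 of 14 alternatives. In batch1 Clamp was at 327, 296 and 336 CPM at stage 2 and at 223, 206, 245 and 197 CPM at stage 5. Every stage 5 library was lower, a log2 change of -0.55 ± 0.10 (SE; adjusted p = 6.8e-05).

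The stage change of Clamp differed between the sets by -1.07 ± 0.14 on the log2 scale (batch1 minus main, SE; adjusted p = 3.7e-05), where 29.5% of all genes differed. At stage 5 Clamp was 2.23-fold lower in the batch1 controls than in the main controls (log2 -1.16 ± 0.09, SE; adjusted p = 1.2e-07), and 50.4% of all genes differed. At stage 2 its difference was -0.09 ± 0.10 (SE; adjusted p = 0.866). None of the 3 genes passed there by edgeR or DESeq2, where 0.0125% of all genes did. The unadjusted p was under 0.05 for zld (0.90 ± 0.32, SE; adjusted p = 0.608) and Trl (0.65 ± 0.20; adjusted p = 0.505), as it was for 594 of 8005 genes tested. The summed level of 5 maternal marker RNAs (bcd, nanos, osk, dhd and exu) moved with this difference. It was 294 to 575 CPM in the main stage 5 controls and 104 to 147 CPM in the batch1 ones, and all 5 had counts in both. The 4 late embryo markers summed to 80.7 to 95.6 CPM in the main and 196 to 242 CPM in the batch1 controls. Their part in the Clamp result was not tested. In such whole-embryo RNA, fewer cells with a transcript and less of it per cell cannot be told apart.

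**Figure D2:**
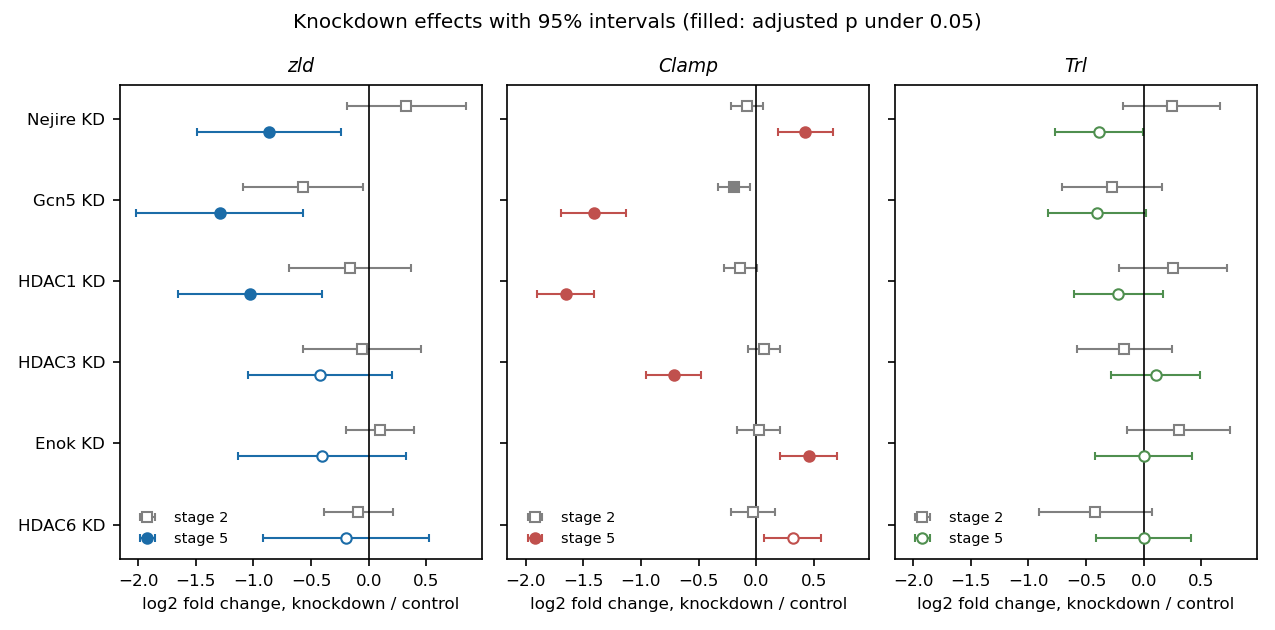
Log2 fold change of each knockdown against the controls of its own set, with 95% intervals, for zld, Clamp and Trl at stage 2 (squares) and stage 5 (circles); filled symbols passed an adjusted p of 0.05. Stage 5 Clamp ranges from -1.65 in HDAC1KD to 0.45 in EnokKD, while the intervals of Trl all include or nearly reach 0.

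Knockdown embryos at stage 5 had less zld RNA in 3 of 6 comparisons. The main controls were at 1209, 614 and 587 CPM. NejireKD libraries were at 399, 354 and 581 CPM, Gcn5KD at 360.3 and 274, and HDAC1KD at 344, 351 and 505 CPM. All Gcn5KD and HDAC1KD libraries lay below every control. NejireKD replicate 3 was below the lowest control on this joint scale and above it on the scale of the fit (617 against 602 CPM). The fall was 1.82-fold in NejireKD (log2 -0.86 ± 0.29, SE; adjusted p = 0.0309), 2.45-fold in Gcn5KD (-1.29 ± 0.34; adjusted p = 0.00575) and 2.04-fold in HDAC1KD (-1.03 ± 0.29; adjusted p = 0.00821).

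Without control replicate 1 zld differed by -0.41 in NejireKD (adjusted p = 0.26) and by -0.57 in HDAC1KD (adjusted p = 0.0999), neither of which passed, and by -0.84 in Gcn5KD (adjusted p = 0.0428). The trend of counts on length among these libraries was 0.164 log2 units per doubling in control replicate 1 and 0.0504 and 0.0225 in the other two, against -0.0601 and -0.149 in Gcn5KD. With the offset for length zld differed by -0.74 in Gcn5KD (adjusted p = 0.0135) and -0.69 in HDAC1KD (adjusted p = 0.00812). The NejireKD call was also lost with the offset for length (-0.34, adjusted p = 0.151) and without NejireKD replicate 1 or 2, and the Gcn5KD call without Gcn5KD replicate 2 (-1.13, adjusted p = 0.0676). HDAC3KD libraries had zld at 595, 752 and 477 CPM and overlapped the controls (log2 -0.42, 95% interval -1.04 to 0.20). Enok and HDAC6 knockdowns had zld at -0.41 (-1.13 to 0.32) and -0.19 (-0.91 to 0.53) against the batch1 controls.

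Of the 3 genes, Clamp differed most clearly between knockdowns and the controls of their set at stage 5, in both directions. The control sets also differed in Clamp at this stage, and values against the batch1 controls are given below. Main controls were at 412, 464 and 407 CPM. NejireKD libraries were higher, at 583, 591 and 543 CPM, a 1.34-fold rise (log2 0.43 ± 0.11, SE; adjusted p = 0.00636). Gcn5KD libraries were at 156 and 152 CPM, a 2.65-fold fall (log2 -1.41 ± 0.13, SE; adjusted p = 3.7e-07). HDAC1KD libraries were at 139.5, 137 and 135 CPM, a 3.14-fold fall (log2 -1.65 ± 0.12, SE; adjusted p = 7.4e-09). The spread within each of these knockdown groups was small beside the distance to the main controls.

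HDAC3KD libraries had Clamp at 286, 203 and 297 CPM, all below the controls (log2 -0.72 ± 0.12, SE; adjusted p = 1.5e-04). In batch1, controls were at 202, 185, 225 and 175 CPM and EnokKD libraries at 285 and 251 CPM, a 1.37-fold rise (log2 0.45 ± 0.11, SE; adjusted p = 0.0417). HDAC6KD libraries were at 256 and 233 CPM, and the difference did not pass (log2 0.32, 95% interval 0.07 to 0.56; adjusted p = 0.202). Without the HDAC6KD library of mixed stage labels, the differences were 0.40 for Clamp (adjusted p = 0.123), 0.15 for zld and 0.07 for Trl. The EnokKD call was lost with the 3 controls that the labels name for it (0.40, adjusted p = 0.105), without any 1 of 5 of the 6 libraries, and when counts of CG42748 were added to those of Clamp (0.20, adjusted p = 0.262).

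Sums of the maternal markers at stage 5 are given beside Clamp. They were 613 to 859 CPM in NejireKD, 294 to 575 in the main controls, 153 to 162 in Gcn5KD, 117 to 184 in HDAC3KD and 92.6 to 108 CPM in HDAC1KD. In batch1 they were 104 to 147 CPM in controls, 150.1 to 192 in EnokKD and 114 to 165 CPM in HDAC6KD. The Gcn5 rescue libraries had sums of 392 to 898 CPM with Clamp means of 335 and 341 CPM. The sums of Gcn5KD and HDAC3KD overlapped, while their Clamp means were 154 and 261.5 CPM. All 5 markers had counts in each stage 5 group of both sets, and follicle cell markers summed to at most 2.95 CPM in total RNA at stage 5. NejireKD also had the lowest zygotic sums, 163 to 254 CPM against 728 to 866 in the main controls. The late embryo markers summed to 14.1 to 26.8 CPM in NejireKD, 80.7 to 95.6 in main controls, 92.97 to 124 in Gcn5KD, 143 to 182 in HDAC1KD and 156 to 190.5 CPM in HDAC3KD. The part of these levels in the Clamp and zld results was not tested.

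Trl did not pass the test in any of the 6 knockdowns at stage 5. Main controls were at 21.8, 25.2 and 23.5 CPM, NejireKD libraries at 20.6, 14.8 and 17.9 CPM and Gcn5KD libraries at 15.6 and 18.4 CPM. The differences were -0.39 (95% interval -0.77 to -0.0049; adjusted p = 0.104) and -0.41 (-0.83 to 0.02; adjusted p = 0.103) on the log2 scale. With scaling to genes of stable level the NejireKD difference passed, at -0.51 (adjusted p = 0.035). HDAC1KD, HDAC3KD, EnokKD and HDAC6KD overlapped their controls, with log2 differences of -0.22, 0.10, 0.00 and 0.00. Of the 3 genes, 2 passed in NejireKD, Gcn5KD and HDAC1KD, 1 in HDAC3KD and EnokKD and 0 in HDAC6KD, where 37.7%, 51.5%, 55.9%, 34.9%, 4.85% and 1.78% of all genes passed. In HDAC6KD 1 of the 3, Clamp, had an unadjusted p under 0.05, as did 1239 of 8162 genes tested, and DESeq2 also called 0 of the 3.

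**Figure D3:**
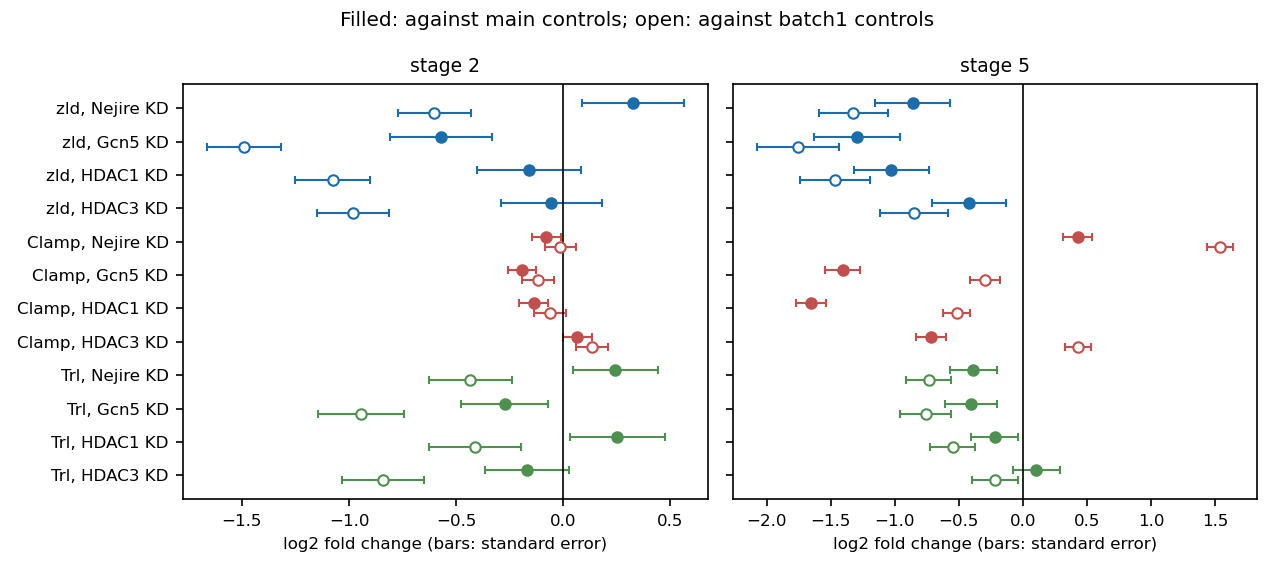
Log2 fold change of the 4 main-set knockdowns at stage 2 (left) and stage 5 (right) against the main controls (filled) or the batch1 controls (open); bars are standard errors. Clamp in HDAC3KD at stage 5 turns from -0.72 to 0.43 when the control set is changed, and zld at stage 2 turns from 0.33 to -0.60 in NejireKD.

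Since the control sets differed in Clamp at stage 5, each main-set knockdown was also compared with the batch1 controls, which share its control cross but not its set. Clamp was then 1.54 ± 0.10 (SE) higher in NejireKD (adjusted p = 1.8e-11), 0.30 ± 0.12 lower in Gcn5KD (-0.30; adjusted p = 0.0463) and 0.52 ± 0.11 lower in HDAC1KD (-0.52; adjusted p = 5.8e-04) on the log2 scale. These 3 passed in the direction seen against the main controls, at sizes that differed by over 1.5 times. HDAC3KD changed sign, to 0.43 ± 0.10 above the batch1 controls (SE; adjusted p = 0.00274). Against batch1, zld fell in all 4 knockdowns at stage 5, by -1.32 in NejireKD, -1.76 in Gcn5KD, -1.47 in HDAC1KD and -0.85 in HDAC3KD. The adjusted p of these 4 were 8.7e-04 to 0.0249. Trl then passed in NejireKD (-0.74, adjusted p = 8.5e-04), Gcn5KD (-0.76, adjusted p = 0.00467) and HDAC1KD (-0.55, adjusted p = 0.0174). At stage 2, zld then passed in all 4 knockdowns, from -0.60 in NejireKD (adjusted p = 0.0283) to -1.49 in Gcn5KD (adjusted p = 1.9e-05), and Trl in Gcn5KD (-0.94, adjusted p = 8.6e-04) and HDAC3KD (-0.84, adjusted p = 0.00329). Set and knockdown are confounded in these values.

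At stage 2 Clamp in Gcn5KD was the single call among the 3 genes and 6 knockdowns, each against the controls of its own set. There, libraries at 343, 352 and 332 CPM lay below controls at 386, 424 and 410.0 CPM. That difference was small (log2 -0.19 ± 0.07, SE; adjusted p = 0.0326) and did not pass without any one of 5 of the 6 libraries or against the batch1 controls. So 1 of 3 genes passed in Gcn5KD, where 36.4% of all genes did. None of the 3 passed in NejireKD (10.1% of all genes), HDAC1KD (15.7%), HDAC3KD (17.4%), EnokKD (6%) or HDAC6KD (3.51%), by edgeR or DESeq2. In these 5 knockdowns 0 of the 15 tests had an unadjusted p under 0.05.

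For zld at stage 2, main controls were at 146, 187 and 318 CPM, and Gcn5KD libraries at 171, 111 and 140.3 CPM overlapped them (log2 -0.57, 95% interval -1.09 to -0.05; adjusted p = 0.081). The highest of these controls was above all 9 of the Gcn5KD, HDAC1KD and HDAC3KD libraries. Trl levels were 5.24 to 17.7 CPM over all stage 2 libraries, from 24 to 257 counts each, with standard errors of 0.19 to 0.23 log2 units. Without control replicate 3 of stage 2, zld passed in NejireKD (0.70, adjusted p = 0.0288), and without control replicate 1 it passed in Gcn5KD (-0.76, adjusted p = 0.029).

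The difference between an effect at stage 5 and the same effect at stage 2 was tested as an interaction term. For Clamp the effects differed in all 4 main-set knockdowns, by 0.50 ± 0.14 in NejireKD (SE; adjusted p = 0.0119), -1.23 ± 0.15 in Gcn5KD (adjusted p = 3.6e-07), -1.42 ± 0.14 in HDAC1KD (adjusted p = 4.4e-09) and -0.77 ± 0.14 in HDAC3KD (adjusted p = 2.4e-04). For zld the effect of NejireKD was lower at stage 5 by -1.17 ± 0.41 (SE; adjusted p = 0.0456), a call lost without control replicate 1 of stage 5 (-0.75, adjusted p = 0.176) and in 6 of the other 11 fits that leave out 1 library. The NejireKD interaction of Clamp did not pass with DESeq2 size factors as scaling (0.33, adjusted p = 0.0741), with scaling to stable genes (0.30, adjusted p = 0.103) or with no filter (0.36, adjusted p = 0.109). For Trl no interaction passed in the fits as reported, with NejireKD at -0.63 (adjusted p = 0.0956). That of NejireKD passed with DESeq2 (-0.80, adjusted p = 0.0235), and in edgeR with DESeq2 size factors (-0.80, adjusted p = 0.0293), scaling to stable genes (-0.83, adjusted p = 0.0257) or no filter (-0.77, adjusted p = 0.0331). So 2 of 3 genes passed in NejireKD and 1 in each of Gcn5KD, HDAC1KD and HDAC3KD, where 19.9%, 31.8%, 37.3% and 22.8% of all genes did. None passed in EnokKD (1.12% of all genes) or HDAC6KD (0.36%), by edgeR or DESeq2, although Clamp had an unadjusted p under 0.05 in both. So did 1121 (EnokKD) and 728 (HDAC6KD) of the 8338 genes tested.

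Embryos with a rescue transgene were compared for the wild type against the catalytic dead enzyme, which came from different crosses. No difference passed for the 3 genes. With the Nejire rescues, zld was at 2239, 2557 and 2352 CPM with the wild type and 2188, 2414 and 2226 CPM with the dead enzyme (log2 0.05, 95% interval -0.07 to 0.18). Clamp was at 439, 446 and 424 against 396, 380 and 389 CPM (0.16, 0.04 to 0.27; adjusted p = 0.197). Trl was at 30.9, 28.3 and 30.2 against 24.4, 24.6 and 24.1 CPM (0.28, 0.07 to 0.48; adjusted p = 0.219).

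For Clamp and Trl with the Nejire rescues the unadjusted p was under 0.05, as it was for 1190 of 8139 genes tested. By adjusted p, 0.442% of all genes passed. With the Gcn5 rescues all 3 genes overlapped. The log2 differences were 0.10 for zld (95% interval -0.17 to 0.36), -0.04 for Clamp (-0.32 to 0.23) and -0.01 for Trl (-0.44 to 0.41), and 0% of all genes passed. Only 18 of 8140 genes tested had an unadjusted p under 0.05 there, fewer than chance alone would give. The lack of calls with the Gcn5 rescues is therefore weak evidence of no difference. None of the 3 genes had an unadjusted p under 0.05 there, and DESeq2 called 0 in either pair.

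**Figure D4:**
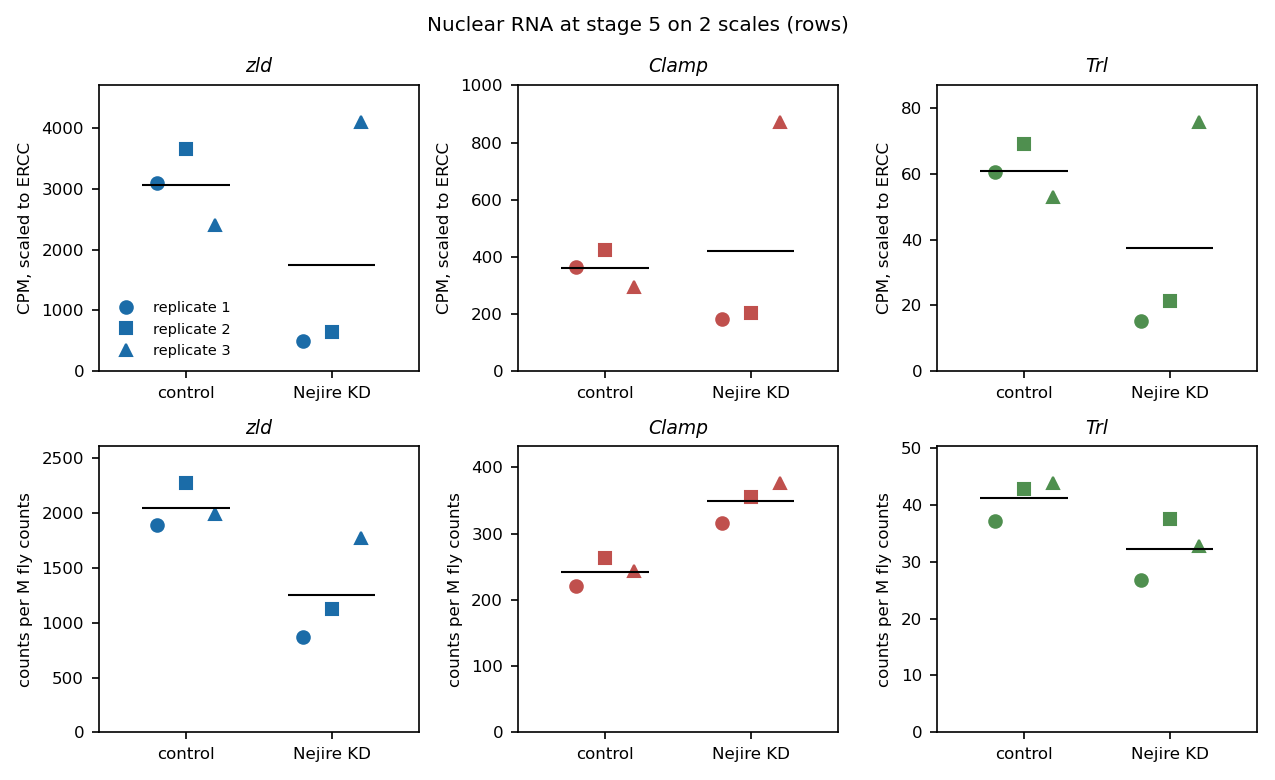
Nuclear RNA of zld, Clamp and Trl at stage 5 in control and NejireKD libraries, scaled to the ERCC spike-in (top) or per M fly counts (bottom); symbols mark replicates, which are not paired, and bars are means. NejireKD replicate 3 (triangle) lies above every control on the ERCC scale for all 3 genes, and Clamp per M fly counts is higher in all 3 NejireKD libraries.

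Nuclear RNA bears on RNA still in the nucleus, where recent transcripts weigh more. Each library held 98.5, 100.0 and 134 ERCC counts per M counts of fly genes in controls and 282, 284 and 69.5 in NejireKD, so NejireKD replicate 3 stood apart from the other two. On the ERCC scale zld was at 3098, 3666 and 2406 CPM in controls and at 498, 640.1 and 4106 CPM in NejireKD. Clamp was at 363, 424 and 295 CPM against 181, 202 and 872 CPM, and Trl at 60.8, 69.1 and 52.9 against 15.3, 21.3 and 75.9 CPM.

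For each gene NejireKD replicates 1 and 2 were below and replicate 3 above all controls. None of the 3 passed, where 12.7% of all genes did, and none had an unadjusted p under 0.05 (log2 -0.81 ± 0.89 for zld, 0.22 ± 0.84 for Clamp and -0.70 ± 0.75 for Trl, SE). DESeq2 also called 0. Without NejireKD replicate 3 all 3 fell, by -2.42 for zld (adjusted p = 8.3e-16), -0.91 for Clamp (adjusted p = 0.00116) and -1.74 for Trl (adjusted p = 2.7e-08).

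With scaling to fly RNA in place of the spike-in, zld fell (-0.82, adjusted p = 0.0138), Trl fell (-0.47, adjusted p = 0.0237) and Clamp rose (0.41, adjusted p = 0.0145). As a plain share of fly counts, without the TMM scaling of that fit, zld was at 1891, 2271 and 1990.2 counts per M in controls and 869, 1127 and 1769 in NejireKD. Clamp was at 221, 262 and 244 in controls and 316, 356 and 376 in NejireKD, all higher. On the ERCC scale the zygotic markers summed to 1869 to 2604 CPM in nuclear controls and 70.4 to 633 CPM in NejireKD, and the maternal ones to 356 to 610.5 and 713 to 2396 CPM, all with counts in both groups. Their part in these results was not tested. On the ERCC scale the sign for Clamp in nuclear RNA thus depended on 1 library, NejireKD replicate 3. That sign also turned with the replicate number as a block and with CG42748 added to Clamp. Without the block and without CG42748, the fit of all libraries for Clamp was positive on either scale, and its call depended on the scaling.

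The ratio of zld to Clamp within a library does not depend on scaling between libraries, but the trend of counts on length can still enter it. Per kb of unshared exon, its log2 was 0.95, 0.97 and 0.88 in nuclear control libraries and -0.69, -0.48 and 0.09 in NejireKD. All NejireKD libraries, replicate 3 included, were below all controls. In total RNA the ratio rose from -3.13 ± 0.55 at stage 2 to -1.32 ± 0.63 at stage 5 in main controls (SD, n = 3 each). In the batch1 controls it was -2.07 ± 0.15 at stage 2 (SD, n = 3) and 0.32 ± 0.48 at stage 5 (SD, n = 4). In NejireKD it was -2.66 ± 0.40 at stage 2 and -2.54 ± 0.44 at stage 5 (SD, n = 3 each), with overlapping libraries. In Gcn5KD, where both RNAs were low at stage 5, the ratio there was -1.12 ± 0.25 (SD, n = 2), within the range of the main controls. The 4 rescue groups had means of 0.30 to 0.58. With 3 libraries against 3, an exact permutation test cannot give a two-sided p under 0.10, and none is given.

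**Figure D5:**
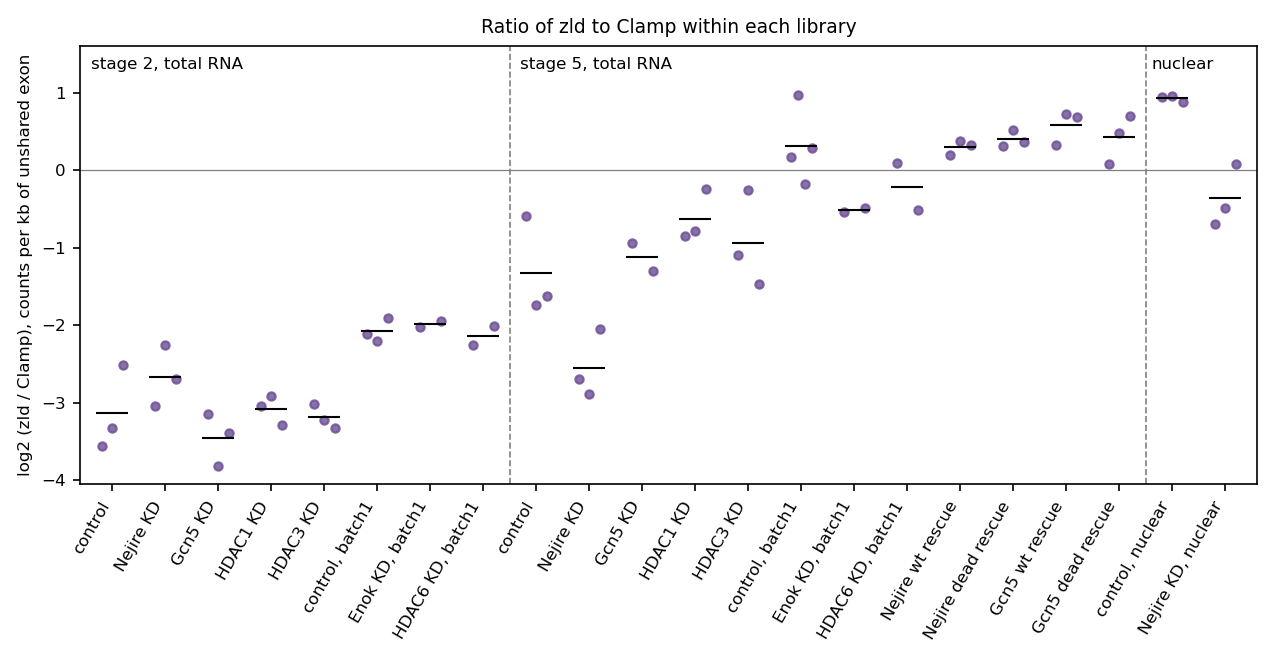
Log2 ratio of zld to Clamp counts per kb of unshared exon in each of the 62 libraries, by group; points are libraries and bars are group means. At stage 5 the ratio in NejireKD (-2.89 to -2.05) lies below that of every other total RNA group, and nuclear controls (0.88 to 0.97) lie above nuclear NejireKD libraries.

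Genes known to depend on Zelda were described beside it. Of a list of 25 such early zygotic genes, 24 were tested at stage 5. The list holds every zygotic marker gene summed above, so the sums and the list share genes. In NejireKD 21 of 24 fell and 0 rose, with a median log2 change of -1.95 against 0.01 over all genes tested. They included tld, a protease of Dpp signalling (-2.81 ± 0.13, SE; adjusted p = 5.3e-12), and the gap gene Kr (-2.23 ± 0.10; adjusted p = 5.3e-12). In Gcn5KD 13 fell and 1 rose (median -0.69 against 0.08), and in HDAC1KD 13 fell and 1 rose (median -0.41 against 0.03). Over all genes tested, 15.9% rose and 21.7% fell in NejireKD, 27.3% and 24.2% in Gcn5KD, 27.5% and 28.4% in HDAC1KD and 14.6% and 20.3% in HDAC3KD. Among the falls was nullo, a cellularization gene, at -4.88 ± 0.42 in Gcn5KD and -6.92 ± 0.45 in HDAC1KD (SE; adjusted p = 3.9e-07 and 1.0e-08).

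Between batch1 and main controls at stage 5, 7 of the 24 rose and 9 fell (median -0.20 against -0.02), where 23.1% of all genes rose and 27.3% fell. The gene nullo was lower in batch1, by -4.89 ± 0.36 (SE; adjusted p = 8.5e-08). In HDAC3KD 5 fell and 1 rose, in EnokKD 1 rose (tll, a terminal gap gene, 0.53 ± 0.12; adjusted p = 0.034) and 0 fell, where 1.84% of all genes rose and 3.01% fell. In nuclear RNA of NejireKD 18 of 24 fell and 0 rose (median -3.19 against -0.29), where 3.2% of all genes rose and 9.53% fell, with tld at -4.92 ± 0.95 (adjusted p = 1.3e-05). The rises and falls of zld and of this list are given side by side, and no link was tested.

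The list of 10 CLAMP partners holds MSL complex subunits, roX RNAs and histone locus body proteins. In NejireKD at stage 5, 2 rose and 3 fell (median -0.11 against 0.01 over all genes, of which 15.9% rose and 21.7% fell). The falls included msl-2, the subunit that limits the complex to males (-1.40 ± 0.14, SE; adjusted p = 2.2e-07), and the rises msl-3 (0.53 ± 0.10; adjusted p = 4.3e-04). The scaffold subunit msl-1 fell in Gcn5KD (-1.23 ± 0.15; adjusted p = 5.4e-06), in HDAC1KD (-1.32 ± 0.13; adjusted p = 2.2e-07) and in HDAC3KD (-0.65 ± 0.13; adjusted p = 0.00101). It was also lower in batch1 than in main stage 5 controls (-0.77 ± 0.10; adjusted p = 7.5e-06), as Clamp was. In those knockdowns 3, 4 and 4 of the 10 fell and 1, 1 and 0 rose. Over all genes, 24.2%, 28.4% and 20.3% fell there and 27.3%, 27.5% and 14.6% rose. The subunit mof rose at stage 5 in EnokKD (0.72 ± 0.10; adjusted p = 0.00197) and HDAC6KD (0.75 ± 0.10; adjusted p = 0.00245) and in Gcn5KD (0.44 ± 0.11; adjusted p = 0.00254), and fell in HDAC1KD (-0.71 ± 0.10; adjusted p = 9.0e-06).

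Of 10 partners of GAGA factor, 1 fell in NejireKD (psq, a BTB protein that binds the same repeats, -0.34 ± 0.10, SE; adjusted p = 0.00956) and 0 rose. In Gcn5KD 4 fell and 2 rose, in HDAC1KD 5 fell and 2 rose, and in HDAC3KD 2 fell and 1 rose. Over all genes, 21.7%, 24.2%, 28.4% and 20.3% fell and 15.9%, 27.3%, 27.5% and 14.6% rose in NejireKD, Gcn5KD, HDAC1KD and HDAC3KD. The NURF subunit E(bx) fell in Gcn5KD (-1.12 ± 0.16; adjusted p = 2.7e-05) and HDAC1KD (-1.30 ± 0.14; adjusted p = 7.3e-07). Of 15 other DNA-binding regulators, 3, 8, 9 and 5 fell and 2, 1, 0 and 0 rose in NejireKD, Gcn5KD, HDAC1KD and HDAC3KD. The zinc-finger insulator protein gene pita fell in Gcn5KD (-1.26 ± 0.12; adjusted p = 3.4e-07), HDAC1KD (-1.35 ± 0.10; adjusted p = 1.4e-08) and HDAC3KD (-0.46 ± 0.10; adjusted p = 0.00208), and was lower in batch1 than in main controls at stage 5 (-0.77 ± 0.11; adjusted p = 2.8e-05). In NejireKD opa (-2.89 ± 0.24; adjusted p = 2.1e-07) and grh (-2.20 ± 0.22; adjusted p = 1.4e-06), which encode other pioneer factors, fell.

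Over the 20 total RNA groups, log2 mean levels of zld and Trl had a Pearson r of 0.88, zld and Clamp of 0.0003 and Clamp and Trl of -0.30. Within the 8 groups of stage 2 these were 0.86, 0.10 and -0.11, and within the 12 of stage 5 0.76, 0.47 and 0.14. These are descriptions over groups that share stage, control crosses, sets and depth. The genes most like zld among 5623 named protein-coding genes were Upf2 (r = 0.989), BRWD3 (0.988), brm (0.988), RhoGAPp190 (0.986) and Usp10 (0.984). The gene brm encodes the ATPase of the Brahma remodeller. For Clamp they were msl-1 (0.965), Dys (0.950), kipf (0.949), Hexim (0.947) and Kcmf1 (0.943). For Trl they were pyd (0.968), rump (0.968), CkIalpha (0.967), Iswi (0.955), the ATPase of NURF, and ena (0.954).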

How the data were processed

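The deposited tables held raw counts per FlyBase gene for 56 total RNA and 6 nuclear RNA libraries, the latter with 92 ERCC transcripts. Per the submitters' processing notes the authors used bcl2fastq 2.20.0.422 and build dm6, while aligner, counter, annotation and strand setting were not stated in the sources read here. Groups came from the sample labels, which call the samples biological replicates, so p-values measure the spread between these pooled embryo samples. The 3 genes and all gene lists were chosen with earlier results of these data known. Lists on promoter motifs were not made, since no promoter sequences were used here.

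Counts were tested with edgeR 4.0.16 (quasi-likelihood F test, robust, TMM scaling, filterByExpr at 10 and 15 counts, R 4.3.3), with Benjamini-Hochberg adjustment over all genes tested and calls at an adjusted p of 0.05. Each stage of a set was fitted together with its own controls, and the 4 knockdowns of the main set (or 2 of batch1) therefore share those controls. Nuclear libraries were scaled by summed ERCC counts. Standard errors are on the log2 scale. Levels are counts per M counts (CPM) after TMM scaling of all 56 total RNA libraries together, or after ERCC scaling for nuclear RNA. For the stage comparisons levels follow the scaling of the fit, which differed from the joint scaling by up to 0.40 log2 units.

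Lengths came from Ensembl exons, with 17626 of 17753 genes matched. Simulated counts were used for the main-set stage comparison, NejireKD at stage 5 and nuclear RNA, and the other fits were not tried this way. The nuclear simulation used fly-gene scaling, so the ERCC scaling was not tested by it. By the correlation of deviations from group means, same-numbered libraries were closest between the control sets at stage 2, though the labels give no pairing. A block left 0 genes called there in place of 1. Alternatives were DESeq2 1.42.0, DESeq2 size factors, TMM over stable genes (1943 and 1552), no filter, groups fitted alone, the replicate number as a block, an offset for a loess trend on exon length, other controls, fly-gene scaling of nuclear RNA and each library left out. Trl was also summed with the genes sharing its exons, and TMM among ERCC transcripts was tried. The sum of Clamp and CG42748, the fit of the 4 control groups and the joint scaling were added after the data were seen. Of each list the text names members among the 2 with the lowest adjusted p among those called in a comparison, and for each of the 3 genes the 5 of highest r.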

Additional observations from a re-analysis of the deposited data

Results flagged for a closer look

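The level of zld in the 4 batch1 controls of stage 5 had 1 library apart. Replicate 2 stood at 1606 CPM and the others at 1005, 885 and 949 CPM, so the gap was 0.8336 of the range, just past the 95% limit of Dixon's test for 4 values. On the scales of the 4 fits that hold these controls the gap was 0.809 to 0.823 of the range, under that limit. About 1 in 20 groups of this size is marked by chance.

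The effect of a knockdown differed between stage 5 and stage 2 for zld in NejireKD, by -1.17 on the log2 scale. It differed for Clamp in NejireKD (0.499), Gcn5KD (-1.23), HDAC1KD (-1.42) and HDAC3KD (-0.767), each by an interaction term in edgeR. The stage change of Clamp differed between batch1 and main controls by -1.07. Both control sets and all 4 knockdowns of the main set with a Clamp interaction bear on the same stage 5 level of Clamp in the main controls, 407 to 464 CPM, since these comparisons share those libraries.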

How the results depend on the processing

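Of 78 results for the 3 genes, 22 passed an adjusted p of 0.05, and 13 of these had the same direction and call under every alternative run for them. Among them were the falls of Clamp in Gcn5KD (-1.49 to -0.30 over the alternatives) and HDAC1KD (-1.69 to -0.52) and its rise in NejireKD (0.28 to 1.54) at stage 5. The rise of zld between stages ran from 0.95 to 2.51 in the main set and 0.52 to 1.98 in batch1, and that of Trl from 1.06 to 1.87 and 0.77 to 1.73. The values below are those whose sign or call changed. Except where fewer libraries were fitted, the cause was not tested. Trl had 24 to 776 counts in a total RNA library. Of 1016 counts of list members called, 159 moved by over 1.5 times.

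With the groups of the comparison fitted alone, the log2 difference of Trl was -0.018 (EnokKD stage 5). With the 3 named controls, the log2 difference of Clamp was 0.40 (EnokKD stage 5, adjusted p = 0.105). Under this setting Trl was at -0.12 (EnokKD stage 5), -0.12 (HDAC6KD stage 5). With CG42748 added to Clamp, the log2 difference of Clamp was -0.052 (EnokKD stage 2), 0.20 (EnokKD stage 5, adjusted p = 0.262), -0.23 (HDAC1KD stage 2, adjusted p = 0.0179), 0.19 (HDAC3KD stage 2, adjusted p = 0.0381), -0.13 (NejireKD nuclear RNA), 0.0018 (control sets at stage 2). With DESeq2, the log2 difference of Trl was -0.0096 (EnokKD stage 5), 0.025 (Gcn5KD interaction), -0.0044 (HDAC6KD stage 5), -0.80 (NejireKD interaction, adjusted p = 0.0235), 0.54 (control sets at stage 5, adjusted p = 0.0114). With DESeq2 size factors in edgeR, the log2 difference of Clamp was 0.33 (NejireKD interaction, adjusted p = 0.0741). For Trl it was -0.0089 (EnokKD stage 5), 0.018 (Gcn5KD interaction), -0.0038 (HDAC6KD stage 5), -0.80 (NejireKD interaction, adjusted p = 0.0293), 0.54 (control sets at stage 5, adjusted p = 0.0171). With TMM on fly genes in nuclear RNA, the log2 difference of zld was -0.82 (NejireKD nuclear RNA, adjusted p = 0.0138). Under this setting Clamp was at 0.41 (NejireKD nuclear RNA, adjusted p = 0.0145). Under this setting Trl was at -0.47 (NejireKD nuclear RNA, adjusted p = 0.0237). With TMM over all total RNA libraries, the log2 difference of Clamp was 0.073 (main stage change, adjusted p = 0.583). For Trl it was -0.014 (EnokKD stage 5), 0.0014 (Gcn5 rescue), -0.0028 (HDAC6KD stage 5). With TMM over stable genes, the log2 difference of zld was 0.77 (control sets at stage 5, adjusted p = 0.0446). Under this setting Clamp was at 0.37 (EnokKD stage 5, adjusted p = 0.0789), 0.30 (NejireKD interaction, adjusted p = 0.103). Under this setting Trl was at -0.079 (EnokKD stage 5), 0.0054 (Gcn5KD interaction), 0.0024 (Gcn5 rescue), -0.054 (HDAC6KD stage 5), -0.83 (NejireKD interaction, adjusted p = 0.0257), -0.51 (NejireKD stage 5, adjusted p = 0.035), 0.63 (control sets at stage 5, adjusted p = 0.00617). Against the batch1 controls, the log2 difference of zld was -1.49 (Gcn5KD stage 2, adjusted p = 1.9e-05), -1.08 (HDAC1KD stage 2, adjusted p = 7.3e-04), -0.98 (HDAC3KD stage 2, adjusted p = 9.5e-04), -0.85 (HDAC3KD stage 5, adjusted p = 0.0249), -0.60 (NejireKD stage 2, adjusted p = 0.0283). For Clamp it was -0.12 (Gcn5KD stage 2, adjusted p = 0.198), 0.43 (HDAC3KD stage 5, adjusted p = 0.00274). For Trl it was -0.94 (Gcn5KD stage 2, adjusted p = 8.6e-04), -0.76 (Gcn5KD stage 5, adjusted p = 0.00467), -0.41 (HDAC1KD stage 2), -0.55 (HDAC1KD stage 5, adjusted p = 0.0174), -0.84 (HDAC3KD stage 2, adjusted p = 0.00329), -0.22 (HDAC3KD stage 5), -0.43 (NejireKD stage 2), -0.74 (NejireKD stage 5, adjusted p = 8.5e-04). With the length offset, the log2 difference of zld was -0.68 (HDAC1KD interaction, adjusted p = 0.0472), 0.042 (HDAC1KD stage 2), 0.058 (HDAC3KD interaction), 0.15 (HDAC6KD interaction), 0.045 (HDAC6KD stage 5), -0.59 (NejireKD interaction, adjusted p = 0.084), -0.34 (NejireKD stage 5, adjusted p = 0.151). Under this setting Trl was at 0.10 (Gcn5KD interaction), 0.017 (Gcn5 rescue), 0.0017 (HDAC1KD stage 5). With no filter, the log2 difference of zld was -0.40 (EnokKD stage 5, adjusted p = 0.00658), -0.53 (Gcn5KD interaction, adjusted p = 0.00731), -0.63 (HDAC1KD interaction, adjusted p = 3.0e-04), -0.38 (HDAC3KD stage 5, adjusted p = 0.00906). For Clamp it was 0.36 (NejireKD interaction, adjusted p = 0.109), 0.21 (main stage change, adjusted p = 0.181). For Trl it was -2.2e-04 (EnokKD stage 5), 0.044 (Gcn5KD interaction), -0.77 (NejireKD interaction, adjusted p = 0.0331).

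Correlations of the deviations of same-numbered libraries from their group means ran from -0.68 to 0.53. Every pair was over 0.1 between the control sets at stage 2 (3 pairs, 0.12 to 0.43, each library closest to its own number). The same held with 2 pairs in Gcn5KD stage 5 (0.13 to 0.21) and EnokKD stage 2 (0.22 to 0.34), too few to judge. No knockdown, stage or rescue comparison with 3 pairs had every pair over 0.1, and the labels tie no number to a shared source. With the replicate number as a block, the log2 difference of zld was 0.022 (HDAC6KD stage 2), -1.20 (NejireKD interaction, adjusted p = 0.0534). Under this setting Clamp was at 0.48 (EnokKD stage 5, adjusted p = 0.0872), -0.22 (NejireKD nuclear RNA), 0.32 (main stage change, adjusted p = 0.0713). Under this setting Trl was at -0.10 (EnokKD stage 5), -0.10 (HDAC6KD stage 5).

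With each library left out in turn, the log2 difference of zld ran over -0.016 to 0.21 (EnokKD stage 2), -1.10 to -0.30 (Gcn5KD interaction), -0.76 to -0.19 (Gcn5KD stage 2), -1.51 to -0.84 (Gcn5KD stage 5), -0.012 to 0.17 (Gcn5 rescue), -1.15 to -0.34 (HDAC1KD interaction), -0.34 to 0.22 (HDAC1KD stage 2), -1.22 to -0.57 (HDAC1KD stage 5), -0.72 to 0.081 (HDAC3KD interaction), -0.25 to 0.32 (HDAC3KD stage 2), -0.59 to 0.032 (HDAC3KD stage 5), -0.53 to 0.16 (HDAC6KD interaction), -0.29 to 0.088 (HDAC6KD stage 2), -0.63 to 0.15 (HDAC6KD stage 5), -1.55 to -0.75 (NejireKD interaction), -2.42 to -0.37 (NejireKD nuclear RNA), 0.13 to 0.70 (NejireKD stage 2), -1.10 to -0.41 (NejireKD stage 5), 0.20 to 0.90 (control sets at stage 5), -0.87 to 0.034 (control sets, stage change). That of Clamp ran over -0.036 to 0.056 (EnokKD stage 2), 0.36 to 0.56 (EnokKD stage 5), -0.21 to -0.17 (Gcn5KD stage 2), -0.13 to 0.033 (Gcn5 rescue), -0.094 to 0.038 (HDAC6KD stage 2), -0.91 to 0.58 (NejireKD nuclear RNA), 0.27 to 0.40 (main stage change). That of Trl ran over -0.51 to 0.029 (EnokKD interaction), -0.12 to 0.12 (EnokKD stage 5), -0.12 to 0.10 (Gcn5 rescue), -0.12 to 0.076 (HDAC6KD stage 5), -1.74 to -0.33 (NejireKD nuclear RNA), 0.24 to 0.42 (control sets at stage 5).

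Counts of genes called that moved by over 1.5 times, the reported count first, were 93 for EnokKD interaction against 248 (DESeq2), 363 (no filter), 52 (replicate block) and 26 to 61 without 1 library. They were 402 for EnokKD stage 2 against 211 to 254 without 1 library. Counts were 396 for EnokKD stage 5 against 763 (2 groups alone), 177 (3 named controls), 602 (DESeq2), 912 (no filter), 103 (replicate block) and 50 to 646 without 1 library. Genes called numbered 1087 for HDAC1KD stage 2 against 2140 (batch1 controls) and 562 to 640 without 1 library. They were 30 for HDAC6KD interaction against 83 (DESeq2), 46 (length-trend offset), 139 (no filter), 16 (replicate block) and 9 to 184 without 1 library. Counts were 235 for HDAC6KD stage 2 against 370 (no filter) and 73 to 146 without 1 library. Genes called numbered 145 for HDAC6KD stage 5 against 81 (2 groups alone), 83 (3 named controls), 282 (DESeq2), 549 (no filter), 32 (replicate block) and 78 to 361 without 1 library. They were 1728 for NejireKD interaction against 3282 (length-trend offset). Counts were 1183 for NejireKD nuclear RNA against 5622 (TMM on fly genes), 669 (replicate block) and 522 to 7256 without 1 library. Genes called numbered 696 for NejireKD stage 2 against 330 (2 groups alone), 1072 (batch1 controls). They were 3104 for NejireKD stage 5 against 6017 (batch1 controls). Counts were 36 for Nejire rescue against 88 (DESeq2), 417 (no filter), 14 (replicate block) and 10 to 159 without 1 library. Genes called numbered 1 for control sets at stage 2 against 31 (DESeq2), 2 (RLE scaling), 0 (TMM over all total RNA libraries), 2 (TMM over stable genes), 5 (length-trend offset), 5 (no filter), 0 (replicate block) and 0 to 2 without 1 library.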

Other observations

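The RNA of mof, the acetyltransferase subunit of the MSL complex, rose at stage 2 in 5 of 6 knockdowns against the controls of their set. The log2 change by edgeR's quasi-likelihood test was 0.49 ± 0.09 in NejireKD (SE; adjusted p = 0.00208), 0.98 ± 0.09 in Gcn5KD (adjusted p = 5.2e-07), 0.38 ± 0.09 in HDAC3KD (adjusted p = 0.00767), 0.55 ± 0.09 in EnokKD (adjusted p = 0.00176) and 0.73 ± 0.09 in HDAC6KD (adjusted p = 3.9e-04). In HDAC1KD mof was at -0.15 ± 0.10 (SE; adjusted p = 0.307). At stage 5 mof rose in Gcn5KD, EnokKD and HDAC6KD and fell in HDAC1KD (-0.71 ± 0.10, SE; adjusted p = 9.0e-06). Knockdowns of a set share their controls, and each had a cross of its own.

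The maternal RNA of bcd, which encodes the anterior morphogen Bicoid, was lower in batch1 than in main controls at stage 5 (-4.06 ± 0.23, SE; adjusted p = 1.5e-08), while at stage 2 its difference was 0.11 ± 0.19 (adjusted p = 0.947). Against the main controls at stage 5 bcd rose in NejireKD (0.90 ± 0.28; adjusted p = 0.0218) and fell in Gcn5KD (-3.48 ± 0.40; adjusted p = 1.0e-05), HDAC1KD (-4.10 ± 0.37; adjusted p = 4.6e-07) and HDAC3KD (-1.96 ± 0.31; adjusted p = 3.5e-04). These are the 4 directions in which Clamp moved against the same controls. The gene bcd is among the maternal markers summed above, and no link to Clamp was tested.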
